A study of Mus musculus with 8 samples.

Results

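The interleukin-6 family of cytokines and the STAT3 arm of its signalling were examined in the retina of rd10 mice, which carry a Pde6b mutation that causes rod and then cone degeneration. The 9 genes were selected by symbol, and each matched 1 of the 54532 rows of the deposited gene table. They comprised 3 ligands (Lif, Clcf1 and Cntf), 4 receptor chains (Osmr, Lifr, Il6st and Il6ra), the transcription factor Stat3 and the feedback inhibitor Socs3. RNA sequencing compared 4 rd10 retina libraries labelled sIVs (libraries 2 to 5), small intracellular vesicles by the series title, with 4 rd10 retina libraries labelled PBS (libraries 1 to 4), described as the control group. All 8 libraries thus share the rd10 background, and no library of a retina without the mutation was analysed here. The origin of the vesicles, their dose and route, and the age of the mice are not given in the sources used here, nor is it said whether each library came from 1 animal. The p-values therefore measure the spread between these libraries.

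Cytokines of this family act through receptor complexes that contain gp130, the shared signalling chain encoded by Il6st. LIF and its relatives bind gp130 together with the LIF receptor, and oncostatin M in the mouse binds gp130 together with the chain encoded by Osmr. The bound complex activates JAK kinases, which phosphorylate STAT3, and STAT3 then induces Socs3, whose product blocks gp130 and the JAKs. In the retina, LIF made by Müller glia after photoreceptor injury is known for protecting photoreceptors and for activating the glia.

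Library totals ran from 15039385 to 16989737 counts in sIVs and from 14640235 to 15948291 counts in PBS. Libraries 3 and 4 of sIVs stood apart. The summed level of 12 rod markers was 39791, 9154, 8700 and 32106 CPM (counts scaled to a common library total) in sIVs libraries 2 to 5, against 34987 to 42445 CPM in PBS. Microglia and macrophage markers, all 14 of them tested, summed to 209.3, 446.1, 545 and 159.1 CPM in sIVs libraries 2 to 5, against 164.6 to 265 CPM in PBS. Markers of infiltrating leukocytes summed to 16.7, 78.2, 63.7 and 20.3 CPM in sIVs, against 12.5 to 22.8 CPM in PBS. Only 2 of the 15 leukocyte markers were abundant enough to test, and 1, the B cell gene Ms4a1, was at 0 in all libraries. Müller glia markers summed to 4634, 5740, 6041 and 3621 CPM in sIVs, against 5140 to 6324 CPM in PBS. That sum is weighted by Glul, the glutamine synthetase gene, at 986 to 1640 CPM in sIVs, against 1923 to 2719 CPM in PBS. The median log2 deviation of the 15 Müller markers from the PBS mean was -0.16, 0.62, 0.73 and -0.31 in sIVs libraries 2 to 5, against -0.06 to 0.11 in PBS, so the typical marker was highest in sIVs libraries 3 and 4. Astrocyte markers, which include Gfap, summed to 334.6, 810.2, 859.1 and 367.9 CPM in sIVs, against 230.1 to 350.8 CPM in PBS. Gfap and Aldh1l1 carried the height of libraries 3 and 4, the folds of S100b (0.858) and Gja1 (0.762) were below 1, and the median log2 deviation of the 7 markers was 0.07, 0.46, 0.29 and 0.13 in sIVs, against -0.07 to 0.10 in PBS. Pde6b, the gene mutated in rd10, had 1843.3, 407, 387.3 and 1561.1 CPM in sIVs, against 1566 to 1747.6 CPM in PBS. Library 2 of sIVs was closer to PBS than to its own group: the chi-square per gene between 2 libraries was 3.65 to 12.6 for it and a PBS library, and 13.9 to 74.5 for it and another sIVs library. In bulk tissue, fewer cells of a type and less RNA per cell cannot be told apart, and the part these differences play in the results below was not tested. Xist, the transcript of the inactive X chromosome, was at 0.597 CPM in sIVs library 5 and 0.213 CPM in PBS library 4. In the other 6 libraries it was between 2504 and 2943 CPM. Y-linked genes summed to 299 CPM in sIVs library 5 and 298.3 CPM in PBS library 4, and to at most 0.067 CPM in the other 6. Each group thus held 1 library with male expression, and the others had female expression.

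No gene of the family passed the main test, and 6 of the 9 stood above every PBS library in all 4 sIVs libraries. These were the ligands Lif and Clcf1, the receptor chains Osmr and Il6ra, Stat3 and Socs3, with fold changes between 1.61 for Stat3 and 4.05 for Lif. Across the 17725 genes tested with edgeR, 4.42% stood above every PBS library in this way and 3.36% below, and no family member was below. The receptor chains Il6st and Lifr overlapped PBS, and Cntf was too low to test.

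The family's count of calls depended on the tool. At an adjusted p under 0.05, edgeR's quasi-likelihood test called 0 of the 8 tested members and 0% of all tested genes. At an unadjusted p under 0.05, 7 of the 8 were higher and 0 lower in sIVs, against 9.61% and 5.63% of all tested genes. At an adjusted p under 0.1 the edgeR test called 1 member, Clcf1, and 0.0621% of all genes. DESeq2 called 6 members, the 6 that did not overlap PBS, and 2.84% of all genes, and limma-voom called none. With sample quality weights, limma-voom called all 8 and 28.1% of all genes, with Lifr lower and the other members higher. Without the filter on low counts, edgeR called Lif, Clcf1, Osmr and Socs3 and 0.45% of all genes. Without sIVs library 2, it called Clcf1, Osmr, Il6st, Stat3 and Socs3 and 7.39% of all genes. Without sIVs libraries 3 and 4, it called none, and 6 members were higher at an unadjusted p under 0.05, against 6.73% of all genes.

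**Figure D1:**
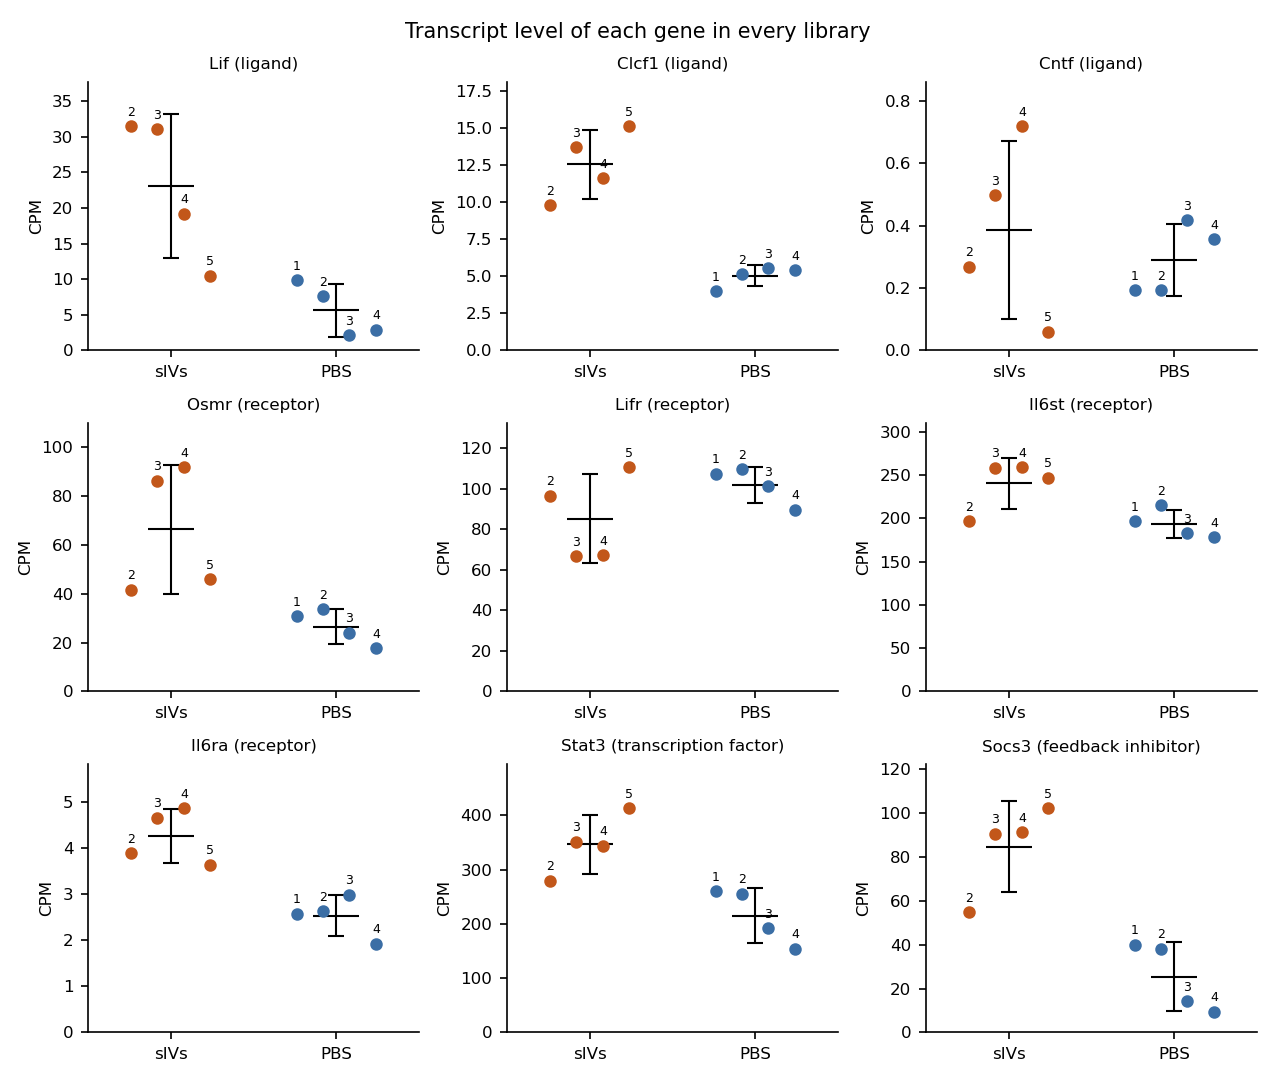
Level of each of the 9 genes in CPM in every library. Points are libraries with their numbers, horizontal bars are means and whiskers are SDs (n = 4 each). Lif, Clcf1, Osmr, Il6ra, Stat3 and Socs3 have no sIVs library at or below a PBS library, while Cntf, Lifr and Il6st overlap.

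The ligands Lif and Clcf1 stood above PBS in every sIVs library. Lif (ENSMUSG00000034394, chromosome 11, 4257557 to 4272514, plus strand, GRCm38) encodes leukaemia inhibitory factor. It stood at 31.5, 31.1, 19.2 and 10.5 CPM in sIVs libraries 2 to 5, against 9.85, 7.63, 2.15 and 2.92 CPM in PBS libraries 1 to 4. The groups did not overlap, but the lowest sIVs library was only 1.07 times the highest PBS library. On the log2 scale the difference was 2.02 ± 0.49 (SE; edgeR, adjusted p = 0.167), the largest in the family. Lif varied 3-fold among sIVs libraries and 4.58-fold among PBS libraries, where libraries 1 and 2 held most. Its highest values were in sIVs libraries 2 and 3, which differed little. Rod markers lay within the PBS range in library 2 and below it in library 3.

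Clcf1 (ENSMUSG00000040663, chromosome 19, 4214238 to 4223490, plus strand) encodes cardiotrophin-like cytokine factor 1, a second ligand of the ciliary neurotrophic factor receptor. It stood at 9.78, 13.7, 11.6 and 15.1 CPM in sIVs libraries 2 to 5, against 3.99, 5.13, 5.55 and 5.41 CPM in PBS libraries 1 to 4. Every sIVs library was at least 1.76 times the highest PBS library, the widest separation in the family, and the PBS libraries differed from each other by 1.39-fold. edgeR put the log2 difference of sIVs over PBS at 1.32 ± 0.17 (SE; adjusted p = 0.0868), the third smallest p of all 17725 genes. Without sIVs libraries 3 and 4 it was 1.31 ± 0.20 (SE; edgeR, adjusted p = 0.0717).

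Cntf (ENSMUSG00000079415, chromosome 19, 12763660 to 12765632, minus strand) encodes ciliary neurotrophic factor, which protects photoreceptors when supplied to the eye. It had 4, 8, 13 and 1 counts in sIVs libraries 2 to 5, against 3, 3, 6 and 5 counts in PBS libraries 1 to 4. The groups overlapped and the gene did not pass the filter on low counts, so a difference was not detectable at this depth. Without the filter, sIVs differed from PBS by 0.43 ± 0.63 on the log2 scale (SE; edgeR, adjusted p = 0.804). All 1973 bases of the gene lie within Zfp91 on the same strand, a gene at a mean of 197.9 CPM, so the few Cntf counts are uncertain.

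The other ligands of the family were mostly near the detection limit. Of 9 further genes listed, 2 were tested, Ctf1 and Ebi3, and neither had an unadjusted p under 0.05. Ctf1, the cardiotrophin gene, averaged 3.17 CPM in sIVs and 3.16 CPM in PBS. Il6 itself had 1, 2, 1 and 2 counts in sIVs libraries 2 to 5 and 0 counts in every PBS library, so no fold is given. Osm, the oncostatin M gene, had 8, 13, 12 and 3 counts in sIVs libraries 2 to 5, against 3, 2, 0 and 2 counts in PBS libraries 1 to 4. Library 5 overlapped PBS for this gene.

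Among receptor chains, Osmr and Il6ra differed from Lifr and Il6st. Osmr (ENSMUSG00000022146, chromosome 15, 6813577 to 6874969, minus strand), the oncostatin M receptor chain, stood at 41.6, 86.3, 91.8 and 45.9 CPM in sIVs libraries 2 to 5. In PBS libraries 1 to 4 it stood at 30.8, 33.7, 24 and 17.7 CPM. The groups did not overlap, and sIVs libraries 3 and 4 stood above libraries 2 and 5. Marker sums of microglia, leukocytes, astrocytes, endothelium, pericytes, myelin and inner retinal neurons were also highest in libraries 3 and 4. The typical Müller marker was highest there too, and the rod and cone marker sums were lowest. Any link of Osmr with these markers was not tested. Its log2 difference of sIVs over PBS was 1.32 ± 0.29 (SE; edgeR, adjusted p = 0.161), and 0.71 ± 0.19 once sIVs libraries 3 and 4 were left out (SE; edgeR, adjusted p = 0.207).

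Lifr (ENSMUSG00000054263, chromosome 15, 7090614 to 7197489, plus strand), the LIF receptor chain, was the only tested member with a negative fold change. It stood at 96.6, 66.8, 67.3 and 110.6 CPM in sIVs libraries 2 to 5, against 107.4, 109.6, 101.3 and 89.6 CPM in PBS libraries 1 to 4. Only sIVs libraries 3 and 4 were below every PBS library, and library 5 was above them all. On the log2 scale the difference was -0.26 ± 0.16 (SE, edgeR adjusted p = 0.476). It turned to 0.02 ± 0.09 once sIVs libraries 3 and 4 were left out (SE, edgeR adjusted p = 0.949). The difference stayed negative in 21 of 22 alternative fits. It was called in 1, limma-voom with sample quality weights (-0.53, adjusted p = 0.00467).

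Il6st (ENSMUSG00000021756, chromosome 13, 112464070 to 112510086, plus strand), which encodes gp130, varied least. It stood at 197, 258.8, 259.1 and 247.3 CPM in sIVs libraries 2 to 5, against 197.1, 215, 183 and 178.4 CPM in PBS libraries 1 to 4. Library 2 of sIVs lay inside the PBS range and the other 3 lay above it. edgeR put the log2 difference of sIVs over PBS at 0.32 ± 0.10 (SE; adjusted p = 0.228), and 0.20 without sIVs libraries 3 and 4 (edgeR adjusted p = 0.406).

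Il6ra (ENSMUSG00000027947, chromosome 3, 89864059 to 89913196, minus strand) encodes the chain that binds interleukin-6 itself. It was low, at 3.88, 4.66, 4.86 and 3.64 CPM in sIVs libraries 2 to 5, against 2.58, 2.63, 2.98 and 1.92 CPM in PBS libraries 1 to 4. The groups did not overlap. The highest 2 sIVs libraries were 3 and 4, which stood apart in cell markers. Osmr and Il6st were also highest in those libraries and Lifr was lowest. Any link of Il6ra with the cell markers was not tested. Its log2 difference of sIVs over PBS was 0.75 ± 0.19 (SE; edgeR, adjusted p = 0.173), and 0.57 ± 0.24 once sIVs libraries 3 and 4 were left out (SE; edgeR, adjusted p = 0.332).

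Of 6 further receptor genes listed, 4 were tested, and 1, Il31ra, was higher in sIVs at an unadjusted p under 0.05. None was once sIVs libraries 3 and 4 were left out, and over all tested genes the share was 9.61% with all libraries and 6.73% without those. Il31ra, the interleukin-31 receptor chain, averaged 0.93 CPM in sIVs and 0.542 CPM in PBS (0.78 ± 0.32 on the log2 scale, SE, with an edgeR adjusted p of 0.299), and the groups overlapped. Cntfr, the binding chain for ciliary neurotrophic factor, averaged 36.7 ± 4.05 CPM in sIVs and 39.2 ± 4.75 CPM in PBS (SD, n = 4 each, edgeR adjusted p = 0.708).

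The factor and its inhibitor were both abundant. Stat3 (ENSMUSG00000004040, chromosome 11, 100885098 to 100939540, minus strand) stood at 279.9, 351.2, 343.7 and 413 CPM in sIVs libraries 2 to 5, against 259.8, 255.9, 191.6 and 154.5 CPM in PBS libraries 1 to 4. The lowest sIVs library was 1.08 times the highest PBS library. On the log2 scale the difference was 0.69 ± 0.18 (SE; edgeR, adjusted p = 0.173), and 0.68 ± 0.19 once sIVs libraries 3 and 4 were left out (SE; edgeR, adjusted p = 0.21). The last 72 bases of Stat3 overlap Stat5a on the opposite strand, and the strand setting of the counting is not given in the sources used here.

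Socs3 (ENSMUSG00000053113, chromosome 11, 117966079 to 117970047, minus strand) stood at 54.8, 90.7, 91.3 and 102.2 CPM in sIVs libraries 2 to 5, against 39.9, 38.2, 14.2 and 9.46 CPM in PBS libraries 1 to 4. Every sIVs library was above every PBS library, by 1.37 times at the nearest. edgeR put the log2 difference of sIVs over PBS at 1.73 ± 0.42 (SE; adjusted p = 0.167), and 1.62 ± 0.43 once sIVs libraries 3 and 4 were left out (SE; edgeR, adjusted p = 0.204). The PBS libraries differed 4.22-fold among themselves for this gene, with PBS libraries 1 and 2 at 1.57 and 1.5 times the PBS mean and libraries 3 and 4 at 0.557 and 0.372 times.

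The order of levels was read per length, from the deposited FPKM values. In sIVs the order was Stat3 (36.3 FPKM), Socs3 (29.2), Il6st (21.6), Lifr (7.9), Osmr (5.47), Lif (5.29), Clcf1 (3.37), Il6ra (0.492) and Cntf (0.358). In PBS it was Stat3 (22.5 FPKM), Il6st (17.4), Lifr (9.43), Socs3 (8.77), Osmr (2.19), Clcf1 (1.35), Lif (1.29), Il6ra (0.292) and Cntf (0.269). By these means Socs3 was above Il6st and Lifr in sIVs and below them in PBS, while the first and the last 2 places were the same. In PBS libraries 1 and 2, however, Socs3 (13.8 and 13.2 FPKM) was above Lifr (9.95 and 10.1 FPKM). In sIVs the only neighbours whose libraries did not overlap were Il6st above Lifr, and Clcf1 above Il6ra. In PBS they were Il6st above Lifr, Socs3 above Osmr, and Lif above Il6ra.

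**Figure D2:**
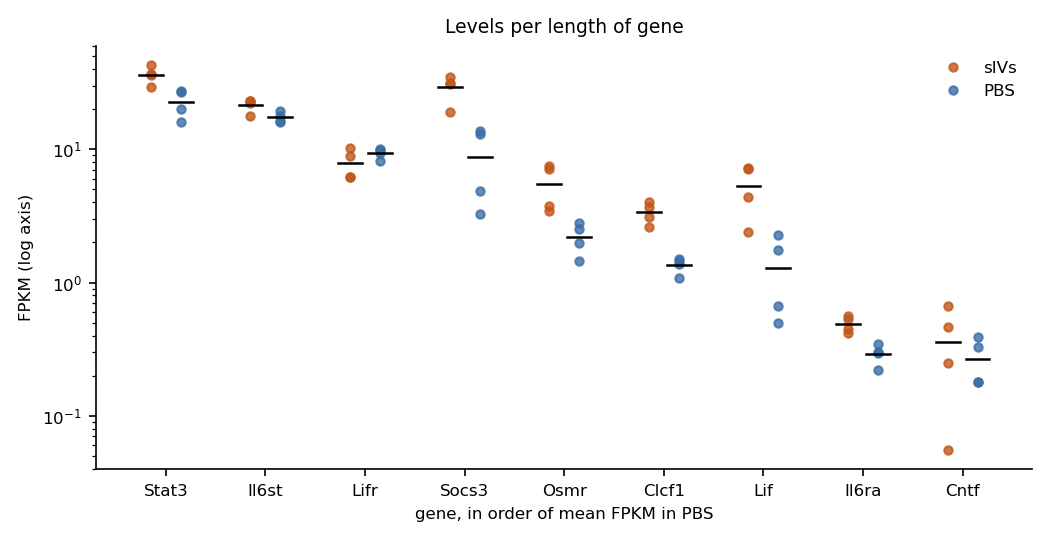
Deposited FPKM of the 9 genes on a log axis, in order of their PBS mean. Points are libraries and bars are means of 4. Stat3 is highest in each group, and Socs3 averages 29.2 FPKM in sIVs and 8.77 FPKM in PBS.

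Ligand, receptor and feedback genes did not follow one order across libraries. Among sIVs libraries Lif was highest in library 2 (5.58 times the PBS mean) and lowest in library 5 (1.86 times). Socs3 was the other way round, lowest in library 2 (2.16 times) and highest in library 5 (4.02 times), as were Stat3 (1.3 and 1.92 times) and Clcf1 (1.95 and 3.01 times). Library 3 held nearly as much Lif as library 2 (5.51 times the PBS mean), with Socs3 at 3.57, Stat3 at 1.63 and Clcf1 at 2.72 times. Between libraries 2 and 3, similar Lif went with different levels of Socs3, Stat3 and Clcf1, and the reason was not tested. Osmr was highest in libraries 3 and 4, at 3.25 and 3.45 times the PBS mean. Among PBS libraries, Lif, Osmr, Lifr, Il6st, Stat3 and Socs3 were all higher in libraries 1 and 2 than in libraries 3 and 4, and Clcf1 and Il6ra were not.

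**Figure D3:**
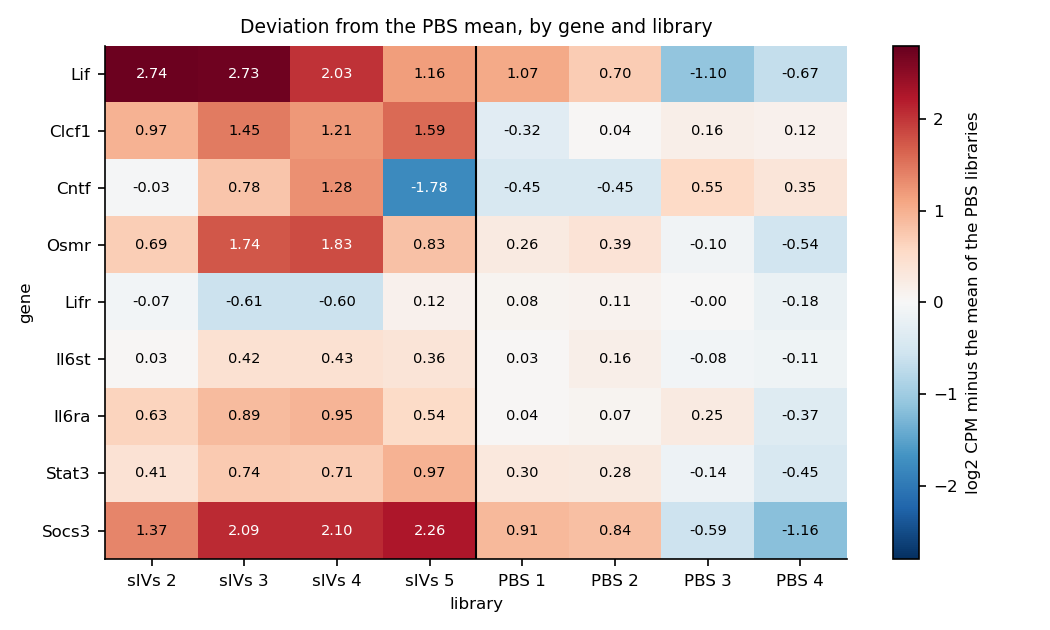
Difference of log2 CPM from the mean of the 4 PBS libraries, for each gene and library. Red is above and blue below the PBS mean. Lif is highest in sIVs libraries 2 and 3 (2.74 and 2.73) and Socs3 in sIVs library 5 (2.26), and PBS libraries 1 and 2 are above libraries 3 and 4 for Lif, Osmr, Stat3 and Socs3.

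Ratios within a library asked whether 2 genes of the pathway differed unequally between the groups. A permutation test, exact over 70 relabellings and taking both directions, was used for 4 ratios, and its smallest possible p is 0.0286. Any ratio with all sIVs libraries above PBS gives that p, and the ratios were chosen with earlier results of these data known. Such a p therefore restates the separation of the libraries and is no independent support. Lifr enters 2 of the 4 ratios. The log2 ratio of Osmr to Lifr was -1.21, 0.37, 0.45 and -1.27 from sIVs library 2 to 5, against -1.80, -1.70, -2.08 and -2.34 in PBS libraries 1 to 4. All 4 sIVs libraries were above PBS, by 1.56 on average (exact permutation p = 0.0286, adjusted over the 4 ratios 0.0381). Libraries 3 and 4 carried much of this, and without them the difference was 0.74 (exact permutation p = 0.0667, the smallest that 6 libraries allow).

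The log2 ratio of Socs3 to Stat3 was -2.35, -1.95, -1.91 and -2.01 from sIVs library 2 to 5, against -2.70, -2.74, -3.76 and -4.02 in PBS libraries 1 to 4. The difference was 1.25 (exact permutation p = 0.0286, adjusted 0.0381), and sIVs libraries were higher in 4 of 4. The log2 ratio of Lif to Lifr was -1.62, -1.10, -1.81 and -3.39 in sIVs, against -3.44, -3.84, -5.54 and -4.93 in PBS. The difference was 2.46 (exact permutation p = 0.0286, adjusted 0.0381), with sIVs library 5 just above PBS library 1. The ratio of Clcf1 to Cntf overlapped between the groups, with a difference of 1.24 (exact permutation p = 0.114, adjusted 0.114), and rested on at most 13 Cntf counts a library. With 1 library left out at a time, all 4 differences kept their sign. The adjusted p of Osmr against Lifr and of Lif against Lifr then missed 0.05 without any library other than sIVs library 4 (0.0571 to 0.114), and that of Socs3 against Stat3 missed it without any of the 8 (0.0762 to 0.114). Clcf1 against Cntf reached 1.68 without sIVs library 4 (exact permutation p = 0.0286, adjusted 0.0381).

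**Figure D4:**
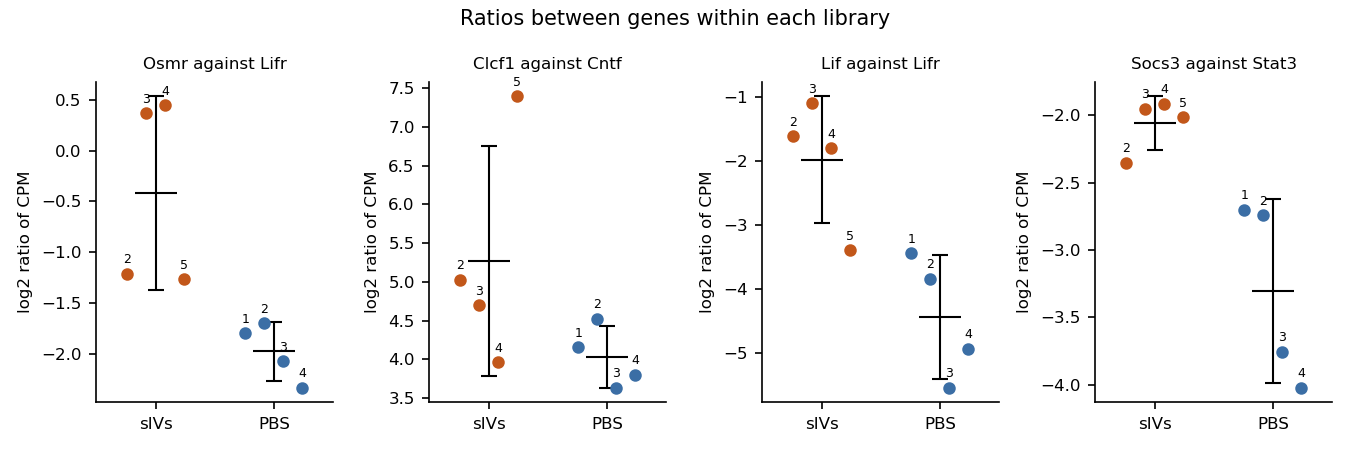
Log2 ratio of CPM of 2 genes within each library, in 4 panels with separate axes. Points are libraries with their numbers, bars are means and whiskers SDs (n = 4 each). The sIVs libraries lie above all PBS libraries for Osmr against Lifr, Lif against Lifr and Socs3 against Stat3, and overlap them for Clcf1 against Cntf.

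Downstream of the receptors, the kinases that gp130 uses differed little. Of 15 listed kinase, STAT and adaptor genes, 14 were tested, 0 passed at an adjusted p under 0.05, and 3 were higher and 0 lower at an unadjusted p under 0.05. Over all tested genes these shares were 9.61% and 5.63%. The median of their log2 fold changes was 0.16, against -0.01 over all tested genes, and it turned to -0.01 without sIVs libraries 3 and 4. With library totals in place of TMM scaling, 6 were higher at an unadjusted p under 0.05, and the list median was 0.24. That scaling also moved the median of all tested genes to 0.07. Under it, 2994 of the 17725 genes had an unadjusted p under 0.05 in either direction. Jak1 averaged 155 ± 15.5 CPM in sIVs and 150.02 ± 6.67 CPM in PBS (SD, n = 4 each), and Jak2 61.3 ± 4.5 CPM in sIVs and 57 ± 1.56 CPM in PBS. Stat2, a factor of the interferon response, stood at 70.4, 129.7, 173.7 and 96.2 CPM in sIVs libraries 2 to 5, against 55.6 to 64.8 CPM in PBS (0.99 ± 0.23 on the log2 scale, SE, with an edgeR adjusted p of 0.167).

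The other inhibitors of the pathway were mixed. All 16 listed were tested, with 0 calls at an adjusted p under 0.05, 5 higher and 1 lower at an unadjusted p under 0.05, and a median log2 fold change of -0.08. The shares over all tested genes were 9.61% and 5.63%. Without sIVs libraries 3 and 4, 3 were higher, against 6.73% of all tested genes, and the median turned to 0.03. Cish, which restrains STAT5 signalling, stood at 10.2, 12.7, 11.4 and 17.4 CPM in sIVs libraries 2 to 5, against 7.61 to 8.21 CPM in PBS (0.69 ± 0.17 on the log2 scale, SE, with an edgeR adjusted p of 0.167). Socs2, a brake on growth hormone signalling, stood 0.67 ± 0.19 higher on the log2 scale (SE; edgeR, adjusted p = 0.185), and its sIVs library 2 lay inside the PBS range. Socs1 stood at 1.27, 4.04, 4.7 and 1.67 CPM in sIVs, against 1.87, 0.706, 0.555 and 0.854 CPM in PBS (edgeR adjusted p = 0.227), so that libraries 2 and 5 overlapped PBS.

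Genes described elsewhere as STAT3 targets, or as induced by cytokines that signal through gp130, had a median log2 fold change of 1.11. Of 34 listed, 31 were tested, 0 passed at an adjusted p under 0.05, and 25 were higher and 0 lower at an unadjusted p under 0.05. Those shares are read beside 9.61% and 5.63% of all tested genes. In 12 of the 31 all sIVs libraries stood above PBS, as in 4.42% of all genes. The list had a median of 0.53 without sIVs libraries 3 and 4. There, 16 were higher at an unadjusted p under 0.05, against 6.73% of all tested genes. Maff, a small MAF transcription factor, stood at 7.37, 9.44, 7.4 and 8.77 CPM in sIVs libraries 2 to 5, against 4.12, 2.76, 2.92 and 2.35 CPM in PBS (1.44 ± 0.20 on the log2 scale, SE, with an edgeR adjusted p of 0.0868). Ccnd1, the cyclin D1 gene, was above PBS in 4 of 4 sIVs libraries (1.14 ± 0.22 on the log2 scale, SE, with an edgeR adjusted p of 0.153), as was the survival gene Mcl1 (0.49 ± 0.09, SE, with an edgeR adjusted p of 0.136).

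The response that LIF drives in the injured retina was described by 10 genes, of which 4 are also in the target list. Of the 9 tested, 0 passed at an adjusted p under 0.05, 7 were higher and 0 lower at an unadjusted p under 0.05, and the median log2 fold change was 1.12, beside 9.61% and 5.63% of all tested genes and their median of -0.01. Without sIVs libraries 3 and 4, 4 were higher at that p, against 6.73% of all tested genes, and the median was 0.81. Ednrb, the endothelin receptor of Müller glia, stood at 10.1, 39.6, 28.4 and 33.5 CPM in sIVs libraries 2 to 5, against 7.68 to 8.08 CPM in PBS (1.82 ± 0.34 on the log2 scale, SE, with an edgeR adjusted p of 0.143). Its ligand gene Edn2, made by injured photoreceptors, stood at 90.5, 86.4, 76.9 and 103.3 CPM in sIVs, against 113.2, 104.6, 72.7 and 68 CPM in PBS. The Edn2 groups wholly overlapped (edgeR adjusted p = 0.99). Fgf2, the other tested gene not higher at an unadjusted p under 0.05, also overlapped PBS. Its difference was 0.28 ± 0.19 on the log2 scale (SE, with an edgeR adjusted p of 0.503). Mt1, a metallothionein gene, stood at 262.5, 579.2, 649.9 and 479.5 CPM in sIVs, against 212.8, 219.9, 162.4 and 89 CPM in PBS (1.53 ± 0.32 on the log2 scale, SE, with an edgeR adjusted p of 0.158). Gfap, the glial filament gene, overlapped PBS in library 2 only, at 199.1 CPM in that library against 210.7 CPM in PBS library 1 (1.26 ± 0.38 on the log2 scale, SE, with an edgeR adjusted p of 0.198).

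**Figure D5:**
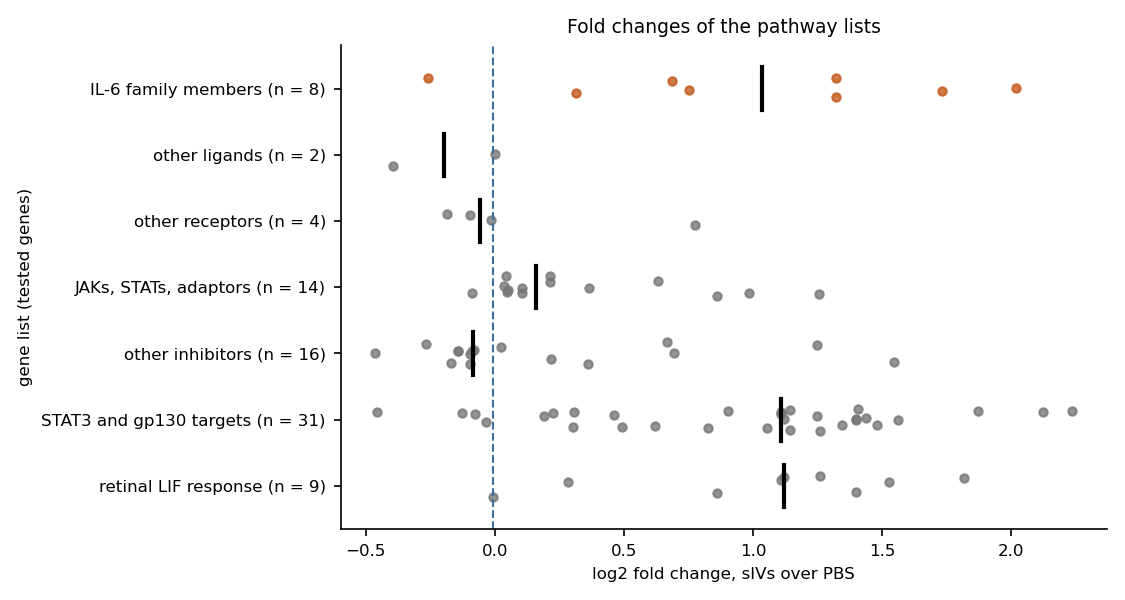
Log2 fold change, sIVs over PBS, of every tested gene in the family and in 6 pathway lists. Points are genes, black bars are list medians and the dashed line is the median of all tested genes (-0.01). Medians are 1.04 for the family, 1.11 for STAT3 and gp130 targets and 1.12 for the retinal LIF response, and lie between -0.20 and 0.16 for the other lists.

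The promoter of Socs3 is shown because it was the only family promoter window that held the palindrome TTCNNNGAA, which STAT dimers bind. RefSeq windows on GRCm38.p6, from 250 bases before to 50 bases after a start site, were found for 8 of the 9 genes, Clcf1 being the exception, and for Lifr there were 2. The palindrome reads the same on either strand. It occurred in 8.3% of 32851 windows and in 9.55% of the 27025 genes that have one. The windows of Socs3, Osmr and Lifr lie inside the deposited gene spans, so the sequence before those spans was not searched. The Socs3 window is chr11:117969317-117969616 on the minus strand, and the capitals mark the match, which begins 154 bases before the RefSeq start site.
Socs3: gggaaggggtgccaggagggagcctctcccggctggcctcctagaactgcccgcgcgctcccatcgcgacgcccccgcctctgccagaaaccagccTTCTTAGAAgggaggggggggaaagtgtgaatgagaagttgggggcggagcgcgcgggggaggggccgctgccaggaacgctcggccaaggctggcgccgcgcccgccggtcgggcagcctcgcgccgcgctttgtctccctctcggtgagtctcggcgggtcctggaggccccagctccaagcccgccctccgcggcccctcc
The window of Lif, the gene with the largest fold change, lies at chr11:4257318-4257617 on the plus strand and held no match.
Lif: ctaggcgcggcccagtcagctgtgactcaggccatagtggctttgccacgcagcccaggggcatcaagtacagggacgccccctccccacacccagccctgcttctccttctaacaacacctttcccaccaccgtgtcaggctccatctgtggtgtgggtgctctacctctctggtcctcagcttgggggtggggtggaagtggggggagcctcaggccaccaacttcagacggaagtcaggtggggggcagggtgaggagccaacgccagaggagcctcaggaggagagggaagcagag
A match is a description of the letters and does not show binding. Among the listed STAT3 and gp130 targets with a window, 7 of 29 (24.1%) held the palindrome. So did 2 of 4 other receptors, 1 of 9 retinal LIF response genes, 1 of 13 kinases, STATs and adaptors, and 0 of 6 other ligands. Gfap had TTCCAGGAA at 2 bases before the RefSeq start site of its window, and Maff had TTCCGGGAA at 27 bases after its own. Of the other inhibitors, 1 of 9 held it: Cish, with TTCCTGGAA at the RefSeq start site and TTCTTGGAA 11 bases further on. The matching windows of Gfap, Maff and Cish lie inside the deposited spans of these genes, not at their outer ends.

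Genes with the most similar profile were sought by the root mean square difference of log2 CPM over the 8 libraries, after centring on the PBS mean, among 14049 protein-coding genes. Osmr was closest to Tmco4 (0.14) and Vwa5a (0.16), and Stat3 to Spsb2 (0.11), which encodes a SOCS box protein, and the secreted protease gene Adamts1 (0.14). Socs3 was closest to the syntaxin gene Stx11 (0.29) and the calcium-binding protein gene S100a6 (0.38). Lif had no close match: Stx11 (0.74) and Hsd17b2 (0.75) were the nearest outside the family, while Socs3 stood at 0.71 from it. Genes that share the PBS order and the height of sIVs libraries score as close, and all values come from the same 8 libraries.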

How the data were processed

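RNA was extracted with TRIzol, poly(A)-selected and sequenced from strand-marked paired-end libraries, per the labels' protocols. The submitters' processing notes name the mm10 build (GRCm38). The sources used here name no aligner, counting program or annotation. Per the deposited files, the authors gave whole-number counts per gene and FPKM for 54532 genes. Within each library the deposited FPKM equalled count per length and library total times 1 constant between 0.93 and 1.03.

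Libraries were grouped by title. The test was that of edgeR 4.0.16 under R 4.3.3 (filterByExpr, TMM scaling, glmQLFit and glmQLFTest on group), with Benjamini-Hochberg adjustment over 17725 genes and an adjusted p under 0.05 taken as a call. CPM was computed from the deposited counts with TMM-adjusted library totals, and 1 count was worth 0.0552 to 0.0711 CPM. SEs come from the F statistic. Ratios used a prior count of 0.5. DESeq2 1.42.0 and limma 3.58.1 were alternatives. In simulated counts for this comparison (17725 genes) edgeR recovered 76% of genes changed 2-fold and 94% of those changed 4-fold. The simulation gave both groups the same dispersion trend and no outlying library. Between the real libraries, the estimated biological coefficient of variation was 22.3% in sIVs and 8.8% in PBS. The recovered shares therefore do not measure the power in the real libraries. No 2 libraries agreed within sampling noise (lowest chi-square per gene 3.65).

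The members, the 6 pathway lists, the 13 marker lists and the tests were chosen with earlier results of these data known. Other genes were named by rule: fixed genes of the pathway, the 2 of smallest p in each list (3 for STAT3 targets) and the 2 of most similar profile to Lif, Osmr, Stat3 and Socs3. The B cell gene, Xist, the Y-linked genes and Fgf2 were named after their values were seen, and so was Zfp91, for its overlap. Leaving out sIVs library 5 and PBS library 4, the 2 without Xist, was added after seeing the data. Some genes that the rule names are not reported here.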

Additional observations from a re-analysis of the deposited data

How the results depend on the processing

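Of the 8 tested genes, 7 kept the sign of their fold change under all 22 alternatives run, and Lifr turned to 0.0201 without sIVs libraries 3 and 4. The number of members called was 1 at an adjusted p under 0.1, 6 with DESeq2, 8 with limma-voom and quality weights, 4 without the filter on low counts, and 0 to 5 when 1 library was left out (5 without sIVs library 2, 0 without any other). It was 0 under the other alternatives. Neither numbering could be shown to pair the libraries. Correlations of same-numbered libraries' deviations ran from -0.06 to 0.05 by title and from -0.07 to 0.09 by biosample number. By title 1 of 6 libraries, and by biosample number 4 of 8, correlated best with their own number. Deviations within sIVs also hold the gap between libraries 3 and 4 and the rest, so this check cannot exclude pairing. The libraries without Xist, sIVs library 5 and PBS library 4, share biosample number 4. With either number as a replicate block, 0 members were called.

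With 1 library left out, the log2 differences ran from 1.27 to 1.85 for Osmr against Lifr, 2.09 to 2.93 for Lif against Lifr, 1.01 to 1.45 for Socs3 against Stat3 and 0.534 to 1.68 for Clcf1 against Cntf. Their adjusted p ran from 0.0381 to 0.114 for the first and second, 0.0762 to 0.114 for the third and 0.0381 to 0.257 for the last. Without sIVs libraries 3 and 4 the first 3 were 0.737, 1.93 and 1.12, and without sIVs library 5 and PBS library 4 they were 1.73, 2.76 and 0.995. As differences within blocks they were 1.56, 2.46 and 1.25 (biosample number) and 1.91, 3.26 and 1.44 (title number). Those designs allow no exact p under 0.0667, 0.1, 0.125 and 0.25, so none could pass. Clcf1 against Cntf was 0.807 on log2(FPKM + 1) and passed there (adjusted p = 0.0286). At an unadjusted p under 0.05 without sIVs libraries 3 and 4, 0 of the other receptors and 3 of the other inhibitors were higher. So were 16 of the targets and 4 of the LIF response, against 6.73% of all tested genes. Scaling by library totals gave 6 kinases and STATs, and moved the median of all tested genes from -0.01 to 0.07. The cause of these changes was not tested. Depth limits Cntf, Il6 and Osm, which had too few counts to test.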
